A study of Mus musculus with 2 samples.

Results

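Il10, Areg, Fgl2, Penk, Ebi3 and Tgfb1 encode 6 proteins that regulatory T (Treg) cells secrete and that act on neighbouring immune or tissue cells. They were taken by gene symbol from the 32285 features counted in each library, and each matched 1 feature. All 6 passed the filter on low values, a mean of the 2 libraries of at least 5 counts per 1000000 UMIs (CPM), which 8951 genes passed. UMIs, unique molecular identifiers, count captured RNA molecules.

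The study concerns copper and the suppressive capacity of Treg cells, per its title. Mouse Treg cells were stained with MitoTracker, a dye taken up by mitochondria, and sorted into a strongly stained (Mito-high) and a weakly stained (Mito-low) population. Each population gave 1 library on the 10x Genomics Chromium 5′ version 2 platform, for which 12000 cells were loaded. The sources used here do not give the strain, tissue, age or number of animals, or any treatment or copper exposure. With 1 library per population, library and population cannot be told apart, no replicate spread stands behind any difference, and no test was made.

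Treg cells restrain immune responses by contact and by release of soluble factors. Il10 encodes interleukin-10, which damps inflammatory cytokine production by macrophages, dendritic cells and T cells through the receptor subunits Il10ra and Il10rb. Ebi3 encodes the beta chain shared by interleukin-27 and interleukin-35, which pairs with the alpha chains encoded by Il27 and Il12a. Tgfb1 encodes transforming growth factor beta 1, made as a latent complex that Treg cells hold on the protein encoded by Lrrc32 and that integrins release. Fgl2 encodes a fibrinogen-like protein with a secreted form that inhibits dendritic cells and B cells. Areg encodes amphiregulin, an EGF receptor ligand shed from the membrane by the protease encoded by Adam17 and known for Treg support of tissue repair. Penk encodes proenkephalin, the precursor of opioid peptides that act on the receptors encoded by Oprd1 and Oprm1.

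On the GRCm38 (mm10) assembly with the GENCODE M21 annotation, all 6 are protein-coding genes. Il10 lies at chr1:131019845-131024974, Areg at chr5:91139599-91148432, Fgl2 at chr5:21372642-21378374, Ebi3 at chr17:55952640-55957022 and Tgfb1 at chr7:25687002-25705077, all on the plus strand. Penk lies at chr4:4133531-4138819 on the minus strand. Fgl2 lies within Ccdc146, Penk overlaps A830012C17Rik and Ebi3 overlaps Gm16712, each on the opposite strand, and the sources used here do not give the strand setting of the counting. Those 3 overlapping genes held 2.90, 0.111 and 0.845 CPM in Mito-high and 5.82, 0.446 and 1.04 CPM in Mito-low.

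Areg and Fgl2 differed by at least 1.5-fold between libraries and between cell classes below, while Tgfb1 differed least. The sequences just upstream of the RefSeq starts of these 3 genes are therefore shown. They run 5′ to 3′ from 250 to 10 bases before the RefSeq start on the GRCm38.p6 assembly, all on the plus strand, at chr5:91139349-91139589 for Areg, chr5:21372423-21372663 for Fgl2 and chr7:25686752-25686992 for Tgfb1. Capitals mark matches to 3 motifs, which were chosen after the sequences had been seen.
Areg: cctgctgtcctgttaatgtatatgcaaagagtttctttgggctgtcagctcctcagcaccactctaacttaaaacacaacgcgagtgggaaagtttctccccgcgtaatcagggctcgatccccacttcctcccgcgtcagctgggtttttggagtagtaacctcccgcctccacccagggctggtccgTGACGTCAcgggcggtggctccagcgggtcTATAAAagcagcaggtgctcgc
Fgl2: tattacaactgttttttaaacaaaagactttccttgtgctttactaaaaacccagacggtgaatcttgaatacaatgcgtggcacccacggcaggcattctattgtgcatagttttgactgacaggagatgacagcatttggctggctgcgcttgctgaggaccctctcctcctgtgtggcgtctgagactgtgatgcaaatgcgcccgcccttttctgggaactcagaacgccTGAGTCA
Tgfb1: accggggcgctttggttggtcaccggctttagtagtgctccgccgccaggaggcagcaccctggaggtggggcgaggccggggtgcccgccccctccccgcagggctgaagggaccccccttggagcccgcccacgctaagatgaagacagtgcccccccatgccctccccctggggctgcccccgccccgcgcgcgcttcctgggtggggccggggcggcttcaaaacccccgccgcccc
The motifs searched on both strands were TGACGTCA (the cyclic AMP response element, CRE), TGANTCA (the AP-1 site) and TATAAA (the TATA box). The Areg window held TGACGTCA from 61 to 54 bases and TATAAA from 31 to 26 bases before the start. In the Fgl2 window TGAGTCA stood 16 to 10 bases before the RefSeq start. The GENCODE gene starts earlier, at 21372642, so this site lies within the gene as GENCODE annotates it and not upstream of it. The Tgfb1 window held none of these letters and was 75.1% G and C, against 56.4% for Areg, 48.1% for Fgl2 and a median of 52.3% over 32851 windows of the same length. Of those windows 1.47% held TGACGTCA, 6.60% TGANTCA and 12.1% TATAAA. Ebi3 also differed by at least 1.5-fold between libraries and between cell classes. Its window, not shown, was 56.0% G and C and held none of the 3 motifs. No window was available for Il10 and Penk. The matches were thus not found in every gene that differed. A match describes the letters in the window and was not tested as a binding site.

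In total 12352 barcodes with 89996794 UMIs were deposited for Mito-high and 11901 with 60688904 for Mito-low. Barcodes with at least 500 genes and at most 20% mitochondrially encoded UMIs were kept, 12217 and 11679 cells with medians of 6132 and 4668 UMIs; 35 of the kept barcodes occurred in both libraries. All 10 Treg markers were detected in both libraries, with summed levels of 4277 and 6243 CPM, and Foxp3, the defining transcription factor, was at 25.8 and 41 CPM. Il2ra alone of these markers was at a higher level in Mito-high, at 210 against 157 CPM. The summed myeloid markers were at 1.72 and 1.31 CPM with C1qb at 0, the platelet markers Pf4 and Ppbp were at 0, the 8 B cell markers summed to 32.6 and 20.9 CPM, and the 2 CD8 T cell markers to 9.03 and 5.47 CPM, with Cd8a at 0.234 and 0.0330 CPM. The 6 stromal and epithelial markers summed to 182 and 174 CPM with Krt8 at 0, mainly from Pecam1, which T cells also express, at 172 and 134 CPM and Epcam at 9.56 and 38.7 CPM. The 5 NK and innate lymphoid markers summed to 53.1 and 65.3 CPM, nearly all from Nkg7, with Ncr1 at 0. Malat1, a nuclear RNA, was at 9590 and 18093 CPM and Gm42418, which overlaps ribosomal RNA, at 1458 and 4016 CPM. These levels moved with the libraries, and their part in the results below was not tested.

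All 6 secreted factors were at a lower level in Mito-high than in Mito-low cells, and 5 of the 6 by at least 1.5-fold, against 11.5% of all measured genes. None was at least 1.5-fold higher, as 4.21% of genes were. The median log2 ratio of Mito-high to Mito-low was -1.82 for the 6 genes and -0.15 for all measured genes, whose central 95% ran from -1.22 to 0.81. Il10, Fgl2 and Penk lay furthest out, and Tgfb1 lay within the central range. Intervals given here are 95% intervals that cover counting error only. Those of levels and ratios take each UMI as an independent draw. Where the UMIs of a gene cluster in few cells, as described below, such intervals are too narrow.

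Among the direct suppressors, Il10 was counted 1428 times in Mito-high, at 15.9 CPM (15.1 to 16.7), and 7562 times in Mito-low, at 125 CPM (122 to 128). Its level was 7.86-fold higher in Mito-low, a log2 ratio of -2.97 (-3.06 to -2.89), the fifth lowest of the 8951 measured genes. Fgl2 was sparser, with 357 UMIs at 3.97 CPM (3.57 to 4.41) in Mito-high and 1635 UMIs at 27.0 CPM (25.7 to 28.4) in Mito-low. The 6.79-fold gap of Fgl2, a log2 ratio of -2.76 (-2.94 to -2.60), was nearly as wide as that of Il10. Ebi3 had 1277 UMIs at 14.2 CPM (13.4 to 15) in Mito-high and 2374 at 39.2 CPM (37.7 to 40.8) in Mito-low, 2.76-fold higher there, with a log2 ratio of -1.46 (-1.56 to -1.37). Tgfb1 had 10492 UMIs at 117 CPM (114 to 119) in Mito-high and 10024 at 166 CPM (162 to 169) in Mito-low. Its 1.42-fold gap, a log2 ratio of -0.50 (-0.54 to -0.47), was the smallest of the 6 and ranked 1368 from the lowest of the measured genes.

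Of the factors that act on tissue and nerve, Areg had 8647 UMIs at 96.2 CPM (94.2 to 98.2) in Mito-high and 15450 at 255 CPM (251 to 259) in Mito-low. Amphiregulin RNA was thus 2.65-fold higher in Mito-low, with a log2 ratio of -1.41 (-1.45 to -1.37). Penk had 2898 UMIs at 32.2 CPM (31.1 to 33.4) in Mito-high and 8856 at 146 CPM (143 to 149) in Mito-low, 4.54-fold higher there, with a log2 ratio of -2.18 (-2.24 to -2.12). For each of the 6 genes the counting intervals of the libraries did not overlap.

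**Figure D1:**
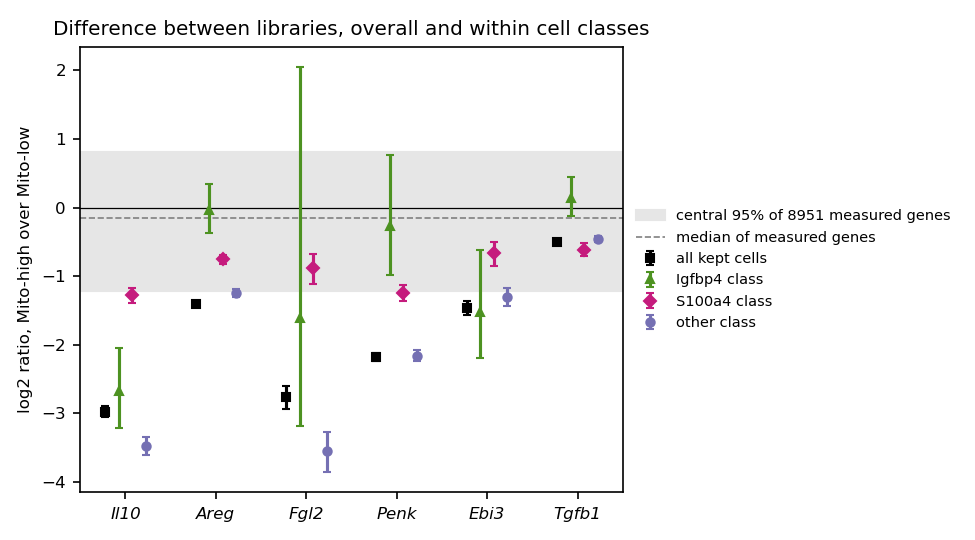
Log2 ratio of Mito-high to Mito-low for each of the 6 genes, over all kept cells and within each cell class, with 95% counting intervals; the grey band is the central 95% of all measured genes. Over all cells every gene lies below 0, from -2.97 for Il10 to -0.50 for Tgfb1, while in the Igfbp4 class Areg, Penk and Tgfb1 lie near 0.

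To compare how many cells held each transcript at equal depth, every cell was thinned at random to 2000 UMIs, which kept 12078 Mito-high and 11188 Mito-low cells and left out 139 and 491 shallower ones. Il10 was then found in 1.94% (1.70 to 2.20) of Mito-high and 13.7% (13.1 to 14.3) of Mito-low cells. Fgl2 was found in 0.538% (0.416 to 0.685) and 4.88% (4.49 to 5.30), and Penk in 2.53% (2.25 to 2.82) and 9.18% (8.65 to 9.73). For these 3 genes the share of positive cells was several times smaller in Mito-high. Ebi3 was found in 2.29% (2.03 to 2.58) and 6.60% (6.14 to 7.07), Areg in 10.8% (10.2 to 11.4) and 23.4% (22.7 to 24.2), and Tgfb1 in 19.5% (18.8 to 20.2) and 25.4% (24.6 to 26.2). All 6 shares were smaller in Mito-high. Without thinning the shares were 5.09% and 21.3% for Il10, 2.06% and 9.99% for Fgl2, 4.68% and 12.9% for Penk, 7.70% and 14.9% for Ebi3 and 20.5% and 33.7% for Areg. The unthinned shares of Tgfb1, 47.1% and 46.6%, were nearly equal, so its order followed the thinning.

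Free RNA in the droplets can give a UMI to a cell that does not express the gene, so the shares were also read in the 22 Mito-high barcodes with at least 3 of 5 B cell markers, at a median of 3134.5 UMIs. Of these, 0 had an Il10, Fgl2 or Ebi3 UMI, which allows a share of up to 13.6%. Areg was in 2 of them, 9.09% (1.12 to 29.2), Penk in 1, 4.55% (0.115 to 22.8), and Tgfb1, which B cells also express, in 8, 36.4% (17.2 to 59.3). The T cell marker Cd3e was in 5 of them, 22.7% (7.82 to 45.4). Doublets were not called, and their part in these shares was not tested. Few cells make these limits wide, and the Mito-low library had 0 such barcodes. Before thinning, the Mito-high shares of all 6 genes lay within these limits: 5.09% for Il10, 2.06% for Fgl2, 7.70% for Ebi3, 20.5% for Areg, 4.68% for Penk and 47.1% for Tgfb1.

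Cells of each library were then split by markers that are not among the 6 genes. The Igfbp4 class held cells with at least 1 UMI of Igfbp4, an insulin-like growth factor binding protein gene that is known from naive-like T cells. The S100a4 class held cells with at least 2 UMIs of S100a4, a calcium-binding protein gene of activated and effector T cells, and no Igfbp4. In Mito-high 2771 cells (22.7%) fell in the Igfbp4 class, 1313 (10.7%) in the S100a4 class and 8133 (66.6%) in neither, called other cells. In Mito-low the numbers were 188 (1.61%), 3925 (33.6%) and 7566 (64.8%). Median depth differed between the classes, with medians of 6407, 7821 and 5807 UMIs in the Mito-high library, against 5649.5, 5035 and 4456.5 UMIs in the Mito-low library. The thinned share of cells with Foxp3 varied little over the classes, from 5.10% to 5.72% in Mito-high and from 7.93% to 8.74% in Mito-low. The summed Treg markers were lowest in the Igfbp4 class of each library, at 3338 and 3603 CPM, as were Ikzf2 and Ctla4. Il2ra, on the same marker list, was instead highest in that class, at 247 and 267 CPM. In the S100a4 and other cells Il2ra was at 119 and 215 CPM in Mito-high and at 148 and 159 CPM in Mito-low. The part of depth and of these marker levels in the class differences was not tested.

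**Figure D2:**
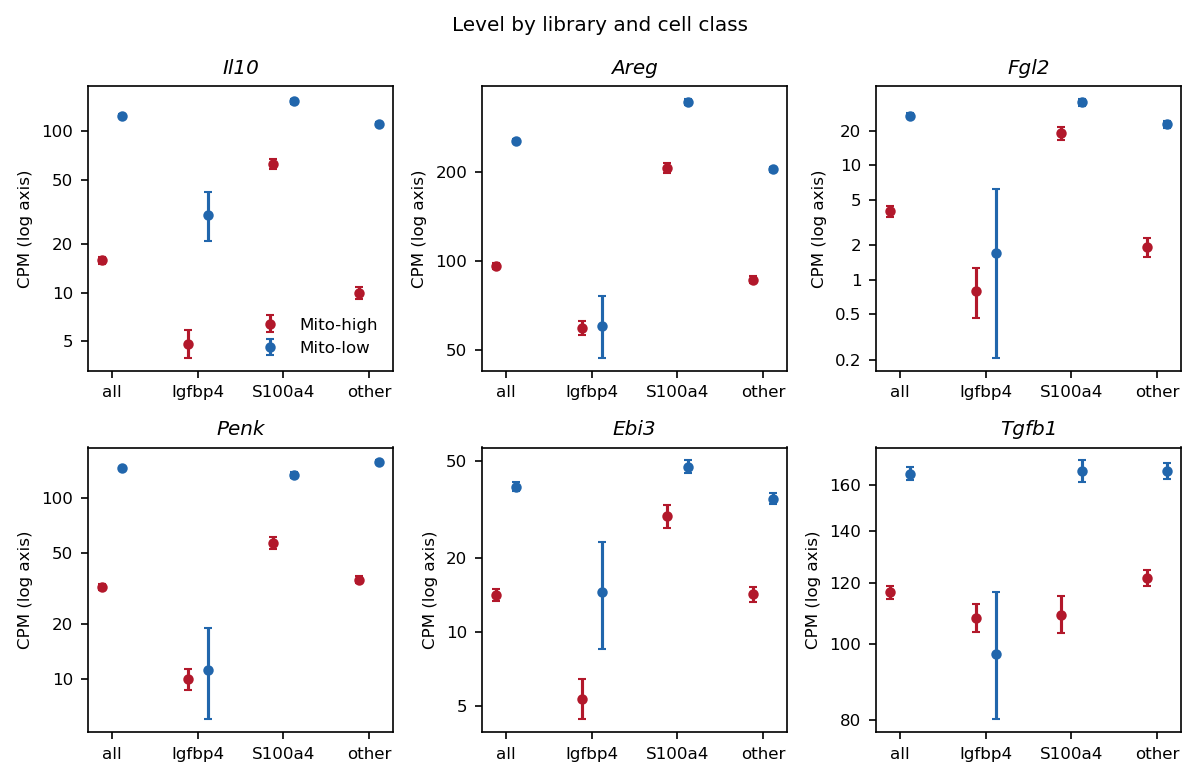
Level of each gene in CPM (log axis, a separate scale per panel) in all kept cells and in the Igfbp4, S100a4 and other classes of Mito-high (red) and Mito-low (blue), with exact Poisson 95% intervals. Il10 and Fgl2 are highest in the S100a4 class in both libraries, whereas Tgfb1 in Mito-high stays between 108 and 122 CPM over the 3 classes.

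Within Mito-high, 5 of the 6 genes were at least 1.5-fold higher in the S100a4 class than in other cells, against 13.4% of measured genes, and 3 of the 5 that passed the filter on low values in the Igfbp4 and other cells, Il10, Penk and Ebi3, were at least 1.5-fold lower in the Igfbp4 class, against 3.05%. Fgl2 did not pass that filter in these classes and stands outside that count. Il10 was at 4.82 CPM in the Igfbp4 class, 63.1 CPM in the S100a4 class and 9.93 CPM in other cells. Fgl2 followed the same order, at 0.796, 19.0 and 1.93 CPM, where the first rests on 17 UMIs, and its log2 ratio of the Igfbp4 class to other cells was -1.21 (-2.11 to -0.54). The S100a4 class exceeded other cells by 2.67 (2.51 to 2.83) on the log2 scale for Il10 and by 3.29 (2.97 to 3.64) for Fgl2, the widest class gaps among the 6. Ebi3 was at 5.34, 29.7 and 14.2 CPM and Areg at 59.4, 207 and 86.4 CPM, so both also peaked in the S100a4 class. Their S100a4 class ratios over other cells were 1.06 (0.88 to 1.24) for Ebi3 and 1.26 (1.19 to 1.33) for Areg.

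Penk showed the same order over all depths but not at matched depth, and Tgfb1 differed little between the classes. Penk was at 9.92 CPM in the Igfbp4, 56.8 CPM in the S100a4 and 35.4 CPM in the other class of Mito-high, a log2 ratio of S100a4 over other of 0.68 (0.55 to 0.81). The 689 Penk UMIs of the S100a4 class came from 90 cells, and the richest cell held 72 of them. Among Mito-high cells of 4000 to 6000 UMIs the ratio of S100a4 over other turned to -0.66. The Penk difference between these classes thus did not hold at matched depth. Tgfb1 was at 108 (104 to 113) CPM in the Igfbp4 class, 109 (103.4 to 115) CPM in the S100a4 class and 122 (119 to 125) CPM in other cells. The Tgfb1 levels of the Igfbp4 and S100a4 classes did not differ beyond counting error.

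In Mito-low, all 6 genes were at least 1.5-fold lower in the Igfbp4 class than in other cells, against 16.2% of measured genes, though only 188 cells stood behind that class. There Il10 was at 30.1 CPM (35 UMIs), Areg at 60.2 CPM (70 UMIs), Penk at 11.2 CPM (13 UMIs), Ebi3 at 14.6 CPM (17 UMIs) and Tgfb1 at 97.1 CPM (113 UMIs). The 35 Il10 UMIs came from 14 cells, and the richest of these held 20. Fgl2 had 2 UMIs in the Igfbp4 class, and its log2 ratio to other cells was -3.14 with an interval from -6.77 to -1.87. After thinning, 0 of 183 cells of this class had Fgl2, which allows a share of up to 1.64%. The S100a4 class of Mito-low exceeded other cells by at least 1.5-fold for 2 of 6 genes, against 3.22% of measured genes: Areg at 348 against 205 CPM, a log2 ratio of 0.76 (0.72 to 0.81), and Fgl2 at 35.3 against 22.7 CPM, a ratio of 0.64 (0.50 to 0.78). Fgl2 was the gene near the line, and in cells of 4000 to 6000 UMIs the count was 1 of 6. Il10 stood at 153 and 111 CPM, Ebi3 at 47.3 and 35.1 CPM and Tgfb1 at 167 CPM in both. Penk was lower in the S100a4 class, at 134 against 158 CPM, a log2 ratio of -0.23 (-0.30 to -0.17), which moved to -1.06 when the cells were classed and counted after thinning.

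The share of positive cells, with the 6 genes counted at equal depth, showed the same picture for Il10 and Fgl2. The classes were set before thinning, so class membership could still depend on depth. In Mito-high Il10 was found in 0.652% (0.387 to 1.03) of Igfbp4 class, 7.93% (6.52 to 9.52) of S100a4 class and 1.4% (1.15 to 1.68) of other cells. Fgl2 was found in 0.109% (0.0224 to 0.317), 3.13% (2.25 to 4.22) and 0.262% (0.162 to 0.401). For both genes the interval of the S100a4 class did not overlap those of the 2 other classes, and the part of free RNA in these shares was not tested. Areg was found in 6.96%, 23.0% and 10.1% of the Igfbp4, S100a4 and other cells of Mito-high, and Ebi3 in 0.797%, 5.95% and 2.21%. Penk was found in 0.797% (0.5 to 1.20), 3.73% (2.78 to 4.91) and 2.92% (2.57 to 3.32), lowest in the Igfbp4 class with the 2 other intervals overlapping. Tgfb1 was found in 17.9%, 19.2% and 20.1%. In Mito-low the shares were 4.92%, 16.2% and 12.5% for Il10, 5.46%, 30.4% and 20.1% for Areg, 1.64%, 7.86% and 10.1% for Penk, 3.83%, 7.65% and 6.09% for Ebi3 and 14.8%, 25.9% and 25.4% for Tgfb1, and Fgl2 was in 6.44% of S100a4 and 4.16% of other cells. Each gene was found least often in the Igfbp4 class there too, where the interval of Ebi3 (1.55 to 7.72) overlapped those of the other classes. The S100a4 class made up 10.9% of the thinned Mito-high cells but held 44.4% of the 234 cells positive for Il10 and 63.1% of the 65 positive for Fgl2. It held 28.2% of those positive for Ebi3, 23.2% for Areg, 16.1% for Penk and 10.7% for Tgfb1, the last close to the class's share of cells. In Mito-low, where the class made up 34.6% of thinned cells, it held 41% of cells positive for Il10, 45.6% for Fgl2, 44.9% for Areg, 40.1% for Ebi3, 35.2% for Tgfb1 and 29.6% for Penk.

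Comparing the libraries class by class, the S100a4 class showed all 6 genes at least 1.5-fold lower in Mito-high, against 10.2% of measured genes, with log2 ratios of -1.28 for Il10, -1.24 for Penk, -0.89 for Fgl2, -0.75 for Areg, -0.67 for Ebi3 and -0.61 for Tgfb1. Other cells showed 5 of 6 lower, against 11.7%, with wider gaps for Il10 at -3.47 (-3.61 to -3.35) and Fgl2 at -3.54 (-3.86 to -3.27). Penk was at -2.16, Ebi3 at -1.30, Areg at -1.25 and Tgfb1 at -0.46 in those cells. In the Igfbp4 class 2 of the 5 genes that passed the filter there were lower, against 11.2%: Il10 at -2.67 (-3.21 to -2.04) and Ebi3 at -1.52 (-2.20 to -0.62). The Il10 value rests on 35 Mito-low UMIs from 14 cells, and the richest cell held 20 of them. Fgl2, with 17 and 2 UMIs, did not pass the filter, and its ratio of -1.61 had an interval from -3.19 to 2.05. Areg at -0.04 (-0.37 to 0.35), Penk at -0.27 (-0.98 to 0.76) and Tgfb1 at 0.14 (-0.12 to 0.44) did not differ beyond counting error in that class. Whether the library gap differs between classes was not tested.

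Depth and library moved together, so the levels were also read in bins of total UMIs per cell, which were added after the values had been seen. In Mito-high, Il10 was at 9.40, 11.7, 15.1 and 19.7 CPM in cells under 4000, from 4000 to under 6000, from 6000 to under 9000 and of 9000 or more UMIs. Penk was at 15.2, 18.2, 29.7 and 44.4 CPM and Ebi3 at 4.41, 7.5, 13.2 and 20.1 CPM in the same bins. These 3 genes were thus higher in deeper Mito-high cells. Fgl2 was at 2.49, 3.14, 4.57 and 4.24 CPM there and at 32.3, 27.9, 22.3 and 25.8 CPM in Mito-low. Areg, at 89.9, 92.9, 103.4 and 94.0 CPM, and Tgfb1, at 122, 104, 117 and 123 CPM, showed no such order. In Mito-low, Penk was at 95.6, 144, 173 and 170 CPM and Ebi3 at 25.6, 35.9, 47.9 and 49.5 CPM, whereas Il10 was at 134, 134, 109 and 119 CPM. All 6 genes were lower in Mito-high in each of the 4 bins; the log2 ratio of Il10 went from -3.80 in the shallowest to -2.59 in the deepest cells, and that of Tgfb1 lay between -0.67 and -0.40.

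**Figure D3:**
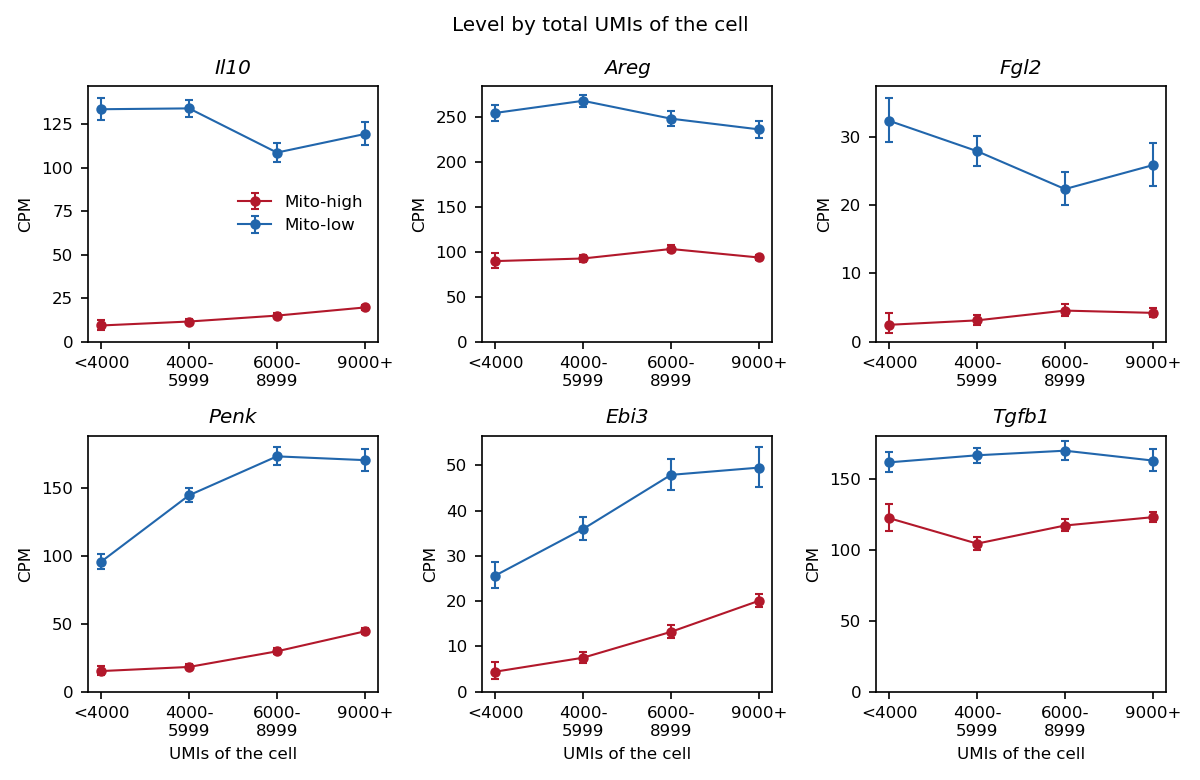
Level of each gene in CPM (linear axis from 0, a separate scale per panel) by total UMIs per cell in Mito-high and Mito-low, with exact Poisson 95% intervals. The Mito-low points lie above the Mito-high points in every bin and panel, and Penk and Ebi3 are higher in deeper cells of both libraries.

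The 6 transcripts differed in how they were spread over cells. After thinning, a Penk-positive cell held on average 2.03 Penk UMIs in the Mito-high library and 2.93 in the Mito-low library, and an Areg-positive cell 1.8 and 2.2 Areg UMIs. Il10 gave 1.5 and 1.88 UMIs per positive cell, Tgfb1 1.17 and 1.29, Fgl2 1.12 and 1.17 and Ebi3 1.07 and 1.11. Each of the 6 means was higher in Mito-low. The variance of the thinned UMIs per cell over their mean was 3.64 and 6.52 for Penk in Mito-high and Mito-low. It was 2.85 and 3.58 for Areg and 2.27 and 2.78 for Il10, and between 1.11 and 1.31 for Fgl2, Ebi3 and Tgfb1. Penk had the largest part of its UMIs in cells with at least 5 of them: 188 Mito-low cells, 18.3% of its positive cells, reached that number and held together 51.7% of all its UMIs, and 26 Mito-high cells held 28.6%. The cell with the most Penk held 134 UMIs before thinning in Mito-low and 72 in Mito-high. For Areg 250 Mito-low cells reached 5 UMIs and held 31.0% of its UMIs, and for Il10 110 cells held 23.0%. Tgfb1 reached 5 UMIs in 12 Mito-low cells, Fgl2 in 1 and Ebi3 in 0.

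Cells with at least 5 UMIs of a factor, called rich in it here, were rare, and few were rich in a second factor. The numbers rich in both lay above those of independence, but they are small and were given no counting interval. Of the 250 Areg-rich and 188 Penk-rich Mito-low cells 11 were both, which is 4.40% of the first and 5.85% of the second, where 4.2 cells would share both at independence. Of the 110 Il10-rich cells 6 were also Areg-rich, where 2.46 would be at independence, and 4 also Penk-rich, where 1.85 would be. Penk-rich cells fell mainly among other cells, 136 of 188, and 52 in the S100a4 class.

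**Figure D4:**
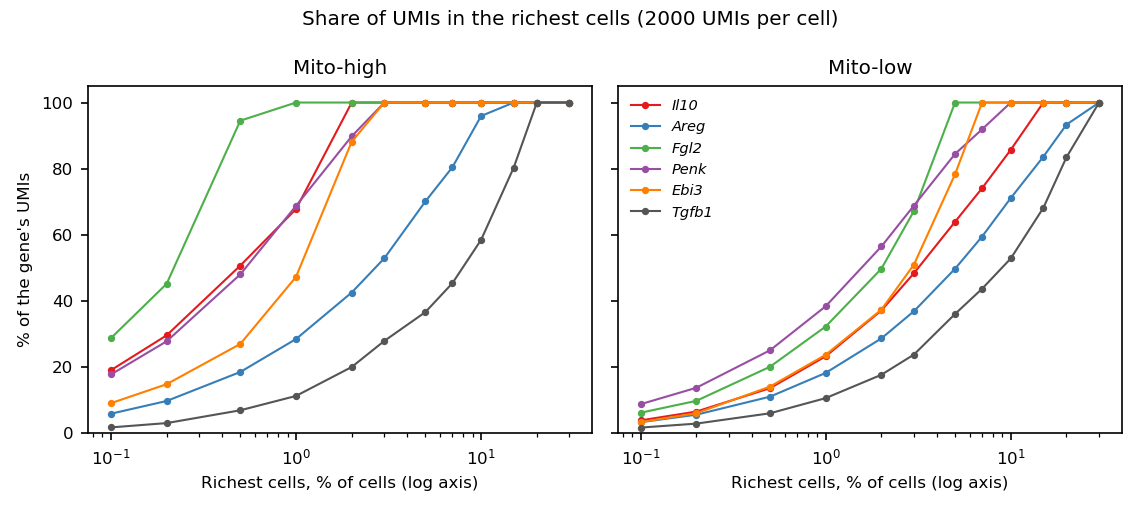
Share of each gene's UMIs held by the cells richest in it, after thinning to 2000 UMIs per cell, with the share of all cells on a log x axis, in Mito-high and Mito-low. In Mito-low the richest 1% of cells held 38.4% of Penk UMIs, against 10.7% of Tgfb1 UMIs, and in Mito-high the richest 0.5% held 94.5% of the few Fgl2 UMIs, against 48.1% for Penk. Of the 12078 thinned Mito-high cells only 65 had Fgl2, with a mean of 1.12 UMIs against 2.03 for Penk. The Fgl2 share in the richest 0.5% follows from that small number of positive cells.

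Pairs of the 6 genes were found in the same thinned cells more often than their separate shares give. Across 23266 cells, 11 of the 15 pairs had an observed over expected ratio above 1 beyond the counting interval with library as stratum, and 10 with library and class. For comparison, the ratio of each gene with 6525 or 6526 other genes had a median between 1.01 and 1.03 and a 95th percentile between 1.12 for Tgfb1 and 1.36 for Fgl2. Of the 15 pairs 6 exceeded the 95th percentile of both partners, and 0 of those 6 involved Tgfb1. Cells of 1 library share its depth and free RNA, so these ratios describe the 2 libraries.

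Il10 and Fgl2 formed the pair with the highest ratio, found together in 178 cells where 76.0 were expected, a ratio of 2.34 (2.01 to 2.71), and 2.19 within classes. In Mito-low 29.5% of the Fgl2-positive cells also had Il10, and 10.5% of the Il10-positive cells also had Fgl2, against 3.99% of the Il10-negative cells. In Mito-high 17 cells had both where 1.26 were expected. Penk and Ebi3 were together in 129 cells against 74.7 expected, a ratio of 1.73, and Areg and Penk in 436 against 274, a ratio of 1.59 with and without classes. Areg with Ebi3 and Il10 with Penk each gave 1.41, and Il10 with Areg gave 1.29, lower at 1.21 within classes. Tgfb1 gave between 1.03 with Ebi3 and 1.27 with Penk, and each of its 5 ratios was under the 95th percentile of the other gene, while those with Il10 (1.21), Areg (1.17) and Penk (1.27) were above its own of 1.12. In 14 of the 15 pairs the ratio was lower within classes.

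**Figure D5:**
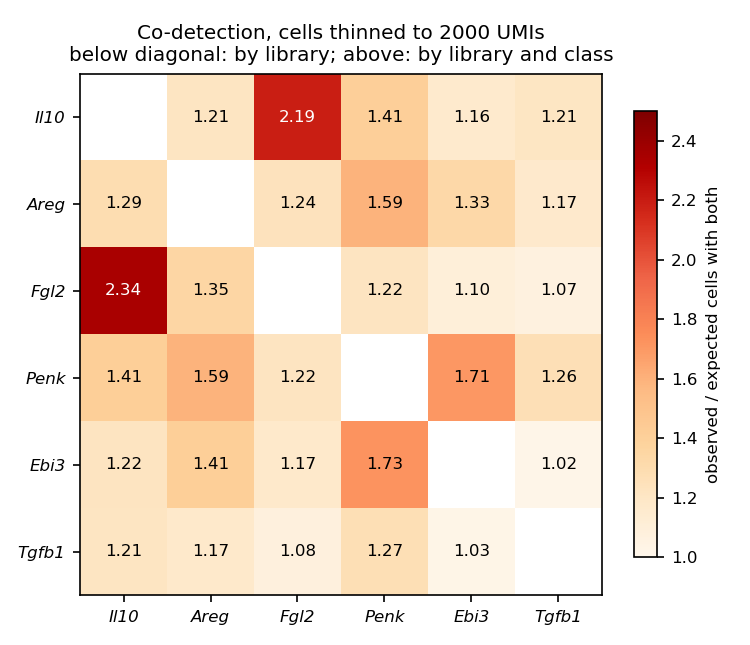
Heat map of the observed over expected number of cells with both genes for the 15 pairs, in cells thinned to 2000 UMIs, with library as stratum below the diagonal and library and class as strata above it. Il10 with Fgl2 stands highest, at 2.34 below and 2.19 above the diagonal, and Ebi3 with Tgfb1 lowest, at 1.03 and 1.02.

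Cells with many of the factors were rare but more frequent than independence gives. Of the Mito-high cells 68.0% had none of the 6 genes after thinning and 57 cells, 0.472% (0.358 to 0.611), had at least 3, where 0.199% was expected from the separate shares. In Mito-low 43.9% had none and 594 cells, 5.31% (4.90 to 5.74), had at least 3, where 3.32% was expected. In the Mito-high S100a4 class 30 of 1312 cells, 2.29% (1.55 to 3.25), had at least 3, where 1.36% was expected from the separate shares in that class.

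The genes with the highest co-detection ratio were named by a rule of 3 per gene, among genes in at least 2% of the thinned cells of each library. Il10, Fgl2, Prdm1 and Klrg1 were below that share in Mito-high and were not ranked, although some of their ratios exceeded those named here. Il10 with Fgl2 was at 2.34, Prdm1 was at 2.08 with Il10 and 2.32 with Fgl2, and Klrg1 was at 1.92 with Areg. For Il10 they were Neb, the gene of the muscle protein nebulin, at 2.44, the metallothionein gene Mt1 at 2.24 and Arl5a, a small GTPase gene, at 1.99. For Fgl2 they were Neb at 2.74, Lgals3 (galectin-3) at 2.41 and Sdc4 (syndecan-4) at 2.27, so Il10 and Fgl2 shared Neb. For Areg they were Il1rl1, the interleukin-33 receptor gene, at 1.77, Il1r2, a decoy receptor gene for interleukin-1, at 1.67 and Dusp14, a dual-specificity phosphatase gene, at 1.66. Penk had Dusp14 at 2.62, Il1r2 at 2.35 and Mgmt, a DNA repair gene, at 2.34, and Ebi3 had Il1r2 at 2.12, Dusp14 at 2.0 and Nrn1 (neuritin) at 1.85. Areg, Penk and Ebi3 thus shared Il1r2 and Dusp14. Tgfb1 had lower ratios, with the RNase gene Zc3h12c at 1.38, Dusp14 at 1.38 and the endocytic recycling gene Ehd1 at 1.33.

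Among chosen partners, the effector regulators gave graded ratios over the 6 genes in the pooled libraries, with library as stratum. The grading describes these pooled values. Of the cells with both Il10 and Prdm1, 162 came from Mito-low and 23 from Mito-high. Prdm1, which encodes the transcription factor Blimp-1, was co-detected with Il10 at 2.08 (1.79 to 2.41) and with Fgl2 at 2.32 (1.82 to 2.92). Its ratio was 1.41 (1.24 to 1.61) with Areg and 1.42 (1.09 to 1.81) with Ebi3. With Penk it was 1.23 (0.97 to 1.54) and with Tgfb1 1.14 (0.99 to 1.30). Maf, a transcription factor gene known to drive Il10, was at 1.5 with both Il10 and Fgl2 and at 1.26 with Ebi3. It was at 1.09 with Penk, 1.08 with Tgfb1 and 1.05 with Areg. Il1rl1 was at 1.77 with Areg, 1.73 with Fgl2, 1.71 with Ebi3 and 1.45 with Il10, against 1.09 (0.89 to 1.31) with Penk and 1.08 with Tgfb1. Gata3 varied less, at 1.26 with Il10, Areg and Penk, 1.32 with Fgl2, 1.21 with Ebi3 and 1.07 with Tgfb1. Itgb8, the integrin subunit gene that serves in releasing active TGF-beta, was highest with Penk at 1.8. Lrrc32 with Tgfb1, the pair of receptor and latent ligand, was at 0.99 (0.92 to 1.07). Foxp3 gave ratios from 0.95 to 1.14 with the 6 genes, all with intervals that include 1.

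The receptors and signalling genes of interleukin-10 were all measured, and 3 of 7 were at least 1.5-fold lower in Mito-high and 0 higher, against 11.5% lower and 4.21% higher among all measured genes. Their median log2 ratio was -0.45, against -0.15 for all measured genes; these shares and this median stand behind the lists that follow too. Il10ra, the ligand-binding receptor subunit, was at 15.9 and 59.1 CPM (-1.89), Socs3, a feedback inhibitor, at 51.7 and 85.0 CPM (-0.72) and the kinase gene Tyk2 at 14.1 and 22.9 CPM (-0.70). Of the regulators of Il10 and effector genes, 29 of 30 were measured, 12 lower (against 11.5%) and 2 higher (against 4.21%), with a median of -0.51. Tbx21, which encodes T-bet, was at 2.40 and 19.97 CPM (-3.05), Pparg at 1.52 and 9.32 CPM (-2.60), Prdm1 at 7.78 and 30.3 CPM (-1.96), Maf at 80.6 and 310 CPM (-1.94), Il1rl1 at 21.9 and 59.9 CPM (-1.45) and Gata3 at 114 and 187 CPM (-0.71). The 2 higher ones, named after their values were seen, were Bach2 at 674 and 303 CPM (1.15) and Nr4a1 at 350 and 228 CPM (0.62).

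For Ebi3, RNA of neither alpha chain was abundant: Il12a had 5 UMIs in each library and Il27 had 6 and 14. Of 13 listed partners and receptors 7 were measured, 2 of them lower (against 11.5%) and 0 higher, with a median of -0.45. Stat4, a transducer of interleukin-12 signals, was at 209 and 421 CPM (-1.01) and Il12rb1, a receptor subunit gene, at 4.85 and 9.48 CPM (-0.97). For Tgfb1, 17 of 22 genes of processing, activation and reception were measured, 6 lower (against 11.5%) and 1 higher (against 4.21%), with a median of -0.21 that lay close to the -0.15 of all measured genes. The integrin genes Itgav, at 213 and 607 CPM (-1.51), and Itgb1, at 244 and 540 CPM (-1.15), were lower, as were Itgb8 at 25.7 and 45.0 CPM (-0.80) and Lrrc32 at 58.3 and 98.6 CPM (-0.76). Furin, whose protease cleaves the precursor, was at 38.9 and 51.6 CPM (-0.41). The receptor genes Tgfbr2, at 170 and 129 CPM (0.39), and Tgfbr3, at 21 and 9.75 CPM (1.10), went the other way, Tgfbr2 by less than 1.5-fold. The receptor gene Tgfbr1, named after its value was seen, was nearly level at 48.0 and 49.4 CPM (-0.04).

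For Areg, 3 of 12 genes of EGF receptor ligands and their shedding were measured, none of them past 1.5-fold: Adam17 at 32.1 and 40.6 CPM (-0.34), Adam10 at 50.9 and 64.1 CPM (-0.33) and Frmd8 at 56.3 and 52.8 CPM (0.09). No other EGF receptor ligand of the list passed the filter, and Rhbdf2, which carries Adam17 to the surface, was at 3.67 and 3.24 CPM. For Penk, 3 of 13 opioid genes were measured: the receptor gene Oprm1 at 48.9 and 54.9 CPM (-0.17), the amidating enzyme gene Pam at 16.1 and 15.5 CPM (0.05) and the protease gene Ctsl at 14.4 and 8.19 CPM (0.81). None of the 3 listed receptors of Fgl2 passed the filter. Of 37 other secreted factors 12 were measured, 7 lower (against 11.5%) and 1 higher (against 4.21%) in Mito-high, with a median of -0.90. Among the lower were the chemokine gene Ccl5 at 23.3 and 339 CPM (-3.86), Ifng at 11.6 and 49.3 CPM (-2.08) and Metrnl at 3.05 and 12.1 CPM (-1.99). The next genes were named after their values were seen. The higher gene was Lta, at 24.2 and 15.9 CPM (0.61). Genes below the filter went both ways, with Xcl1 at 6.81 and 1.22 CPM (2.46) and Ccl4 at 0.489 and 4.92 CPM (-3.30).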

How the data were processed

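Single-cell RNA of 2 mouse Treg cell libraries, 1 Mito-high and 1 Mito-low, was counted. The deposited files hold unnormalized UMI counts, 1 per gene and barcode, written by Cell Ranger 7.1.0 per the file headers; per the submitters' processing notes, the mm10 genome and Seurat 4.3.0.1 were also used. The sources used here do not give the annotation release, the counting of intronic reads or the filter on barcodes.

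The 6 genes, the gene lists and the cell classes were chosen with earlier results of these data known. Kept barcodes had at least 500 genes and at most 20% mt- UMIs. Doublets were not called and no barcode was removed for them. UMIs were summed and scaled to CPM with exact Poisson intervals. Ratios had a pseudo-count of 1 and exact intervals from the conditional binomial, and shares had exact Clopper-Pearson intervals. All intervals were at 95% and for counting error only, and those of levels and ratios took UMIs as independent draws. Shares, co-detection and concentration used cells thinned to 2000 UMIs, and a count of 0 was given the limit of 3 counts. Genes with a mean of the 2 libraries of 5 CPM or more counted as measured, and 1.5-fold described size. The ratio and co-detection code was tested on simulated data.

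The genes named beside the 6 were up to 3 measured genes of each list with the largest absolute log2 ratio, 13 chosen partners, and the 3 genes per member with the highest co-detection ratio. Only genes in at least 2% of the thinned cells of each library entered that co-detection ranking. Co-detection ratios divide the observed cells with both genes by the number expected from their separate shares. Promoter sequences are RefSeq's on GRCm38.p6. Alternatives covered scaling (edgeR 4.0.16 TMM, R 4.3.3), filters, class definitions, thinning, seeds and depth. Python 3.11.15, numpy 2.4.6, scipy 1.17.1 and pandas 2.3.3 were used.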

Additional observations from a re-analysis of the deposited data

Results flagged for a closer look

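Penk differed between the libraries in how its level was split between cell classes. In Mito-high its log2 ratio of the S100a4 class over other cells was 0.68, and in Mito-low it was -0.23, so the classes stood in opposite order. This difference between the libraries was not tested, and with 1 library each it has no replicate check. In Mito-high cells of 4000 to 6000 UMIs the ratio was -0.66 and in Mito-low cells of that depth -0.54, the same order in both.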

How the results depend on the processing

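No paired analysis was possible because each population gave 1 library and the labels hold no replicate numbers, and for the same reason no library could be left out. The log2 ratio of Mito-high to Mito-low stayed below 0 for all 6 genes under 13 alternatives, ranging from -3.52 to -2.39 for Il10, -3.13 to -2.04 for Fgl2, -2.99 to -1.86 for Penk, -2.24 to -1.09 for Ebi3, -1.56 to -0.996 for Areg and -0.67 to -0.32 for Tgfb1. Weighting the classes alike in both libraries gave the smallest gap for all but Tgfb1, and the number at least 1.5-fold lower was 5 or 6. Other scalings moved the median of all genes by 0.19 (TMM), 0.15 (median set to 0) and 0.13 (totals without mt- and ribosomal genes) on the log2 scale. With no filter on low genes 24.4% of genes were at least 1.5-fold lower, against 11.5%. In cells of 4000 to 6000 UMIs, 1 gene rather than 2 was at least 1.5-fold higher in the S100a4 class than in other cells of Mito-low, and the Penk ratio of S100a4 over other cells in Mito-high reversed to -0.66; the cause was not tested. Of the 52 values that alternatives gave for counts over the 6 genes or their pairs, 51 stayed within 1.5 times the main count; of those for single genes or pairs, 252 stayed within the counting interval, 129 moved beyond it and 1 that was at least 1.5-fold apart reversed. The Tgfb1 ratio of S100a4 over other cells, under 1.5-fold, also changed sign, in Mito-high to 0.07 in cells of 4000 to 6000 UMIs and in Mito-low under 3 alternatives, from 0.01 to 0.04. Co-detected pairs above 1 numbered 10 to 13. In these counts over the 6 genes, genes below the filter were included. The alternatives with Foxp3-positive cells, without the deepest 5% of cells and without shared barcodes were chosen after seeing the data. Depth limits Fgl2 most, with 2 UMIs in the Mito-low Igfbp4 class.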

Other observations

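The genes least often found with the 6 factors were read after their values had been seen. Nsg2 was co-detected with Il10 at 0.37 (0.28 to 0.47) of the expected number, and St8sia1 with Areg at 0.56 (0.48 to 0.65) and with Fgl2 at 0.25 (0.11 to 0.47). Ccr7, the receptor gene for homing to lymph nodes, was at 0.38 with Fgl2, 0.57 with Il10, 0.64 with Ebi3, 0.72 with Areg, 0.81 with Penk and 0.98 (0.93 to 1.03) with Tgfb1. Klrg1, a marker gene of effector Treg cells, was at 1.92 with Areg, 1.85 with Ebi3, 2.0 with Fgl2, 1.94 with Il10 and 1.96 with Penk, against 1.17 with Tgfb1. Ccr2, a chemokine receptor gene, was at 0.36 (0.23 to 0.53) with Penk.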
